A study of Mus musculus with 4 samples.

Results

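The genes described here are 7 that guide the egress and positioning of lymphocytes: the sphingosine 1-phosphate (S1P) receptors S1pr1, S1pr2, S1pr3 and S1pr4, the oxysterol receptor Gpr183, and the regulators Klf2 and Cd69. They were chosen by gene name in the array files, where each has 1 probe, so that 7 of 39429 probes are described, for 7 of 29870 named genes or transcripts. Lymphocytes find their place in spleen and lymph nodes, and leave them, by reading lipid gradients. S1P is abundant in blood and lymph and scarce in tissue, and cells that carry S1P receptors follow it towards the exit, while oxysterols read by GPR183 (also called EBI2) draw B cells to the edges of the follicle. The transcription factor KLF2 keeps the S1P receptor gene S1pr1 on in resting T cells of mice, and CD69, which appears on lymphocytes soon after activation, binds the S1PR1 protein and takes it off the cell surface.

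The RNA came from B cells that were purified from spleen with magnetic beads and activated in culture for 3 days through their antigen receptor (anti-IgM, 10 µg/mL) and through CD40, the receptor for signals of helper T cells (anti-CD40, 10 µg/mL). The cells of 1 group came from males deficient in Ackr4 (Ackr4ko), an atypical receptor that removes chemokines, and those of the other from C57BL/6 males (WT). The labels give ages of 73 and 71 days for Ackr4ko and 77 and 74 days for WT, and do not say how Ackr4 was disrupted or how many animals gave each sample. Both groups received the same activation. The series text describes 2 independent experiments on different donors, and each gave 1 array of either genotype (n = 2 per group). A 1-colour Agilent array measured each sample, with 4 spots per probe.

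The files leave the direction of every difference unsettled. In the authors' deposited value table, each of the 4 columns matched the scanner array of its experiment with the opposite genotype label (r = 0.9990 to 1.0000 over the 16207 probes that were detected throughout) better than the scanner array of its own sample (r = 0.9786 to 0.9858). Both Ackr4 probes were well above background on 0 of 4 arrays, so Ackr4 itself checks no label. The groups below are therefore called "labelled Ackr4ko" and "labelled WT", as the scanner files are labelled, and each sign turns round if the value table holds the right labels. Levels are log2 of the processed signal, scaled to each array's 75th percentile, which was 1277 and 740 for Ackr4ko replicates 1 and 2 and 916 and 913 for WT replicates 1 and 2. Outlier spots made up 6.24% of the array labelled WT replicate 2, which stood apart, against 1.79% to 2.12% of the other arrays. All 6 of 6 B cell marker genes examined (Cd22, Cd79a, Cd79b, Ms4a1, Pax5 and Ebf1) were well above background on all 4 arrays.

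Each level rests on 1 probe of 60 bases, placed on the mouse build mm9, and the first 30 bases of each are shown so that the measured stretch can be recognised. The probes lie at chr3:115414020-115414079 (S1pr1, minus strand), chr9:20770729-20770788 (S1pr2, minus), chr13:51517079-51517138 (S1pr3, plus), chr10:80961501-80961560 (S1pr4, minus), chr14:122351881-122351940 (Gpr183, minus), chr8:74845137-74845196 (Klf2, plus) and chr6:129217697-129217756 (Cd69, minus). Whether a probe falls in coding sequence or in an untranslated region was not analysed here. Levels of the 7 genes are not compared with each other.
S1pr1: aagatgaaaatgtgttccttttttgtcaca
S1pr2: tcctgtggagaaatagaaaaatccaatacg
S1pr3: tcactgatattaatcacacattgtacagga
S1pr4: ctgacatctttggttctaatgtctgggccc
Gpr183: gttccagccctaaaatttctccagtacagt
Klf2: tgtatataagactatgaccgattgtatttc
Cd69: ttttgtcaattgttctccaccaaagaataa

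Activated B cells of both groups had signal well above background for 6 of the 7 genes. S1pr1, S1pr3, S1pr4, Gpr183, Klf2 and Cd69 passed on all 4 arrays, and S1pr2 passed on 1. For S1pr1, S1pr4 and Klf2, both arrays labelled Ackr4ko were dimmer than both labelled WT. None of the 6 tested genes passed the test across all genes (limma adjusted p under 0.05, where 2 of 15961 genes, 0.0125%, were called). At an unadjusted p under 0.05 there were 2 of the 6 (S1pr1 and S1pr4), both with negative differences, beside 4.59% of all tested genes (1.70% with negative ones). Groups that did not overlap were seen for those 3 of the 6 (for 1, S1pr4, when arrays were scaled by their median), beside 29.0% of all tested genes (10.0% lower and 19.0% higher on the arrays labelled Ackr4ko). With 2 arrays a group, the smallest p of a two-sided exact permutation test that ignores the experiments is 0.333. A permutation within experiments has fewer arrangements, so its smallest p is larger. Fewer cells of a kind cannot be told apart from less RNA per cell.

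**Figure D1:**
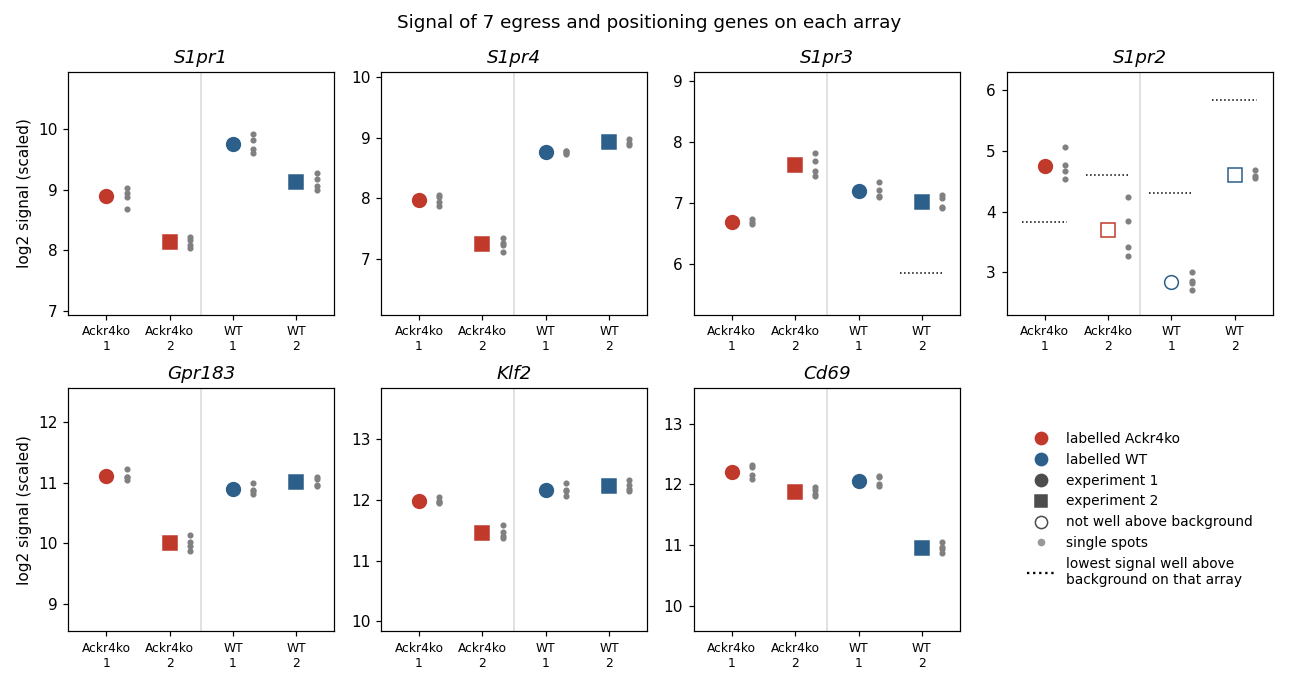
Scaled log2 signal (y axis, the same span of 4 log2 units in every panel) of the 7 genes on the 4 arrays, with the arrays labelled Ackr4ko on the left and those labelled WT on the right. Large symbols are array means, small grey points the single spots, open symbols arrays where the probe was not well above background, and dotted lines, where they fall in range, the lowest signal well above background on that array. S1pr1, S1pr4 and Klf2 are lower on both arrays labelled Ackr4ko than on both labelled WT, and S1pr2 is filled on 1 array.

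S1pr1 encodes the receptor that carries lymphocytes out of lymphoid organs along the S1P gradient. Its log2 signal was 8.89 and 8.13 on the Ackr4ko-labelled arrays, against 9.75 and 9.13 on the WT-labelled ones, in the order of replicates 1 and 2. The lowest array labelled WT was thus above the highest labelled Ackr4ko, by less than the step between the 2 replicates of either group (0.76 labelled Ackr4ko and 0.62 labelled WT). The difference was similar in both experiments, at -0.86 in experiment 1 and -1.0 in experiment 2, which is 1.82-fold and 2.00-fold brighter on the arrays labelled WT. Over both it was -0.93 ± 0.40 (SE, n = 2 per group), with a 95% interval of -1.83 to -0.03. Limma gave an unadjusted p of 0.0447 and an adjusted p of 0.9996, and an adjusted p of 0.149 with the experiment as a block. Leaving out 1 array at a time gave -1.31 to -0.55, with the smallest size without Ackr4ko replicate 2.

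S1pr4, an S1P receptor found mainly on blood cells and lymphocytes, had the largest difference of the 6 tested genes. It measured 7.97 and 7.25 on the Ackr4ko-labelled arrays, against 8.76 and 8.92 on the WT-labelled ones. The arrays labelled WT lay close together (SD 0.12), and both were above both labelled Ackr4ko. The difference was -0.78 in experiment 1 and -1.68 in experiment 2, or 1.72-fold and 3.20-fold brighter on the arrays labelled WT. Over both it was -1.23 ± 0.37 (SE, n = 2 per group), with a 95% interval of -2.06 to -0.40. Limma gave an unadjusted p of 0.00882 and an adjusted p of 0.645. With the experiment as a block S1pr4 was called (limma adjusted p = 0.0166), as the only 1 of the 6. That fit called 3.33% of all tested genes (1.30% lower and 2.04% higher). It gives every gene the same SE (0.35), so the call reflects the size of the mean difference, not how well the experiments agreed for S1pr4. That call was lost when the block was combined with quantile normalization (limma adjusted p = 0.516), where 0 genes were called over the whole array (1446 at an unadjusted p under 0.05). Leaving out 1 array at a time gave -1.59 to -0.87, with the smallest size without Ackr4ko replicate 2.

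S1pr3 is carried in mice by marginal zone B cells. Its log2 signal was 6.69 and 7.62 on the Ackr4ko-labelled arrays, against 7.19 and 7.01 on the WT-labelled ones. The WT-labelled values lay between the Ackr4ko-labelled ones, and the difference had opposite signs in the 2 experiments, -0.50 and 0.61. Over both it was 0.05 ± 0.39 (SE, n = 2 per group), with a 95% interval of -0.84 to 0.94 (limma adjusted p = 0.9996), which leaves room for changes of close to 2-fold either way.

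S1pr2, the receptor that holds germinal centre B cells in the middle of the follicle, was near the limit of the array. Its log2 signal was 4.76 and 3.69 on the Ackr4ko-labelled arrays, against 2.84 and 4.60 on the WT-labelled ones. At least 50% of its spots (2 of 4) were well above background on Ackr4ko replicate 1, and 0 on each of the other 3 arrays. The lowest mean of any probe well above background was 3.82 and 4.60 in Ackr4ko replicates 1 and 2 and 4.31 and 5.84 in WT replicates 1 and 2. A test needed detection on at least 2 arrays, so S1pr2 was not tested and no fold is given. The remaining S1P receptor, S1pr5, which in mice guides natural killer cells, was well above background on 0 of 4 arrays.

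Gpr183 moves activated B cells to the outer follicle and the border of the T cell zone. It measured 11.11 and 10.00 on the Ackr4ko-labelled arrays, against 10.89 and 11.01 on the WT-labelled ones. Ackr4ko replicate 2 was lower than the other 3 arrays, which lay within 0.22 of each other. The difference was 0.22 in experiment 1 and -1.01 in experiment 2. Over both it was -0.39 ± 0.42 (SE, n = 2 per group), with a 95% interval of -1.34 to 0.55 (limma adjusted p = 0.9996), and its sign turned without Ackr4ko replicate 2 (0.16).

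Klf2 encodes the transcription factor that holds lymphocytes in a quiescent, recirculating state. It measured 11.98 and 11.46 on the Ackr4ko-labelled arrays, against 12.16 and 12.22 on the WT-labelled ones. Both groups were apart, but the gap between the nearest arrays, 0.17, was smaller than the step between the replicates labelled Ackr4ko (0.53). The difference was -0.17 in experiment 1 and -0.77 in experiment 2, and over both -0.47 ± 0.34 (SE, n = 2 per group), with a 95% interval of -1.25 to 0.31 (limma adjusted p = 0.9996). Leaving out 1 array at a time gave -0.73 to -0.21, with the smallest size without Ackr4ko replicate 2. That array was the dimmest of the 4 for S1pr1, S1pr4, Gpr183 and Klf2 after scaling, and it also had the lowest 75th percentile before scaling (740); the part of this in the differences was not tested.

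Cd69 encodes the activation antigen that opposes S1PR1 at the cell surface. It measured 12.21 and 11.88 on the Ackr4ko-labelled arrays, against 12.06 and 10.96 on the WT-labelled ones. The groups overlapped, with WT replicate 2 lower than the other 3 arrays. The difference was 0.16 in experiment 1 and 0.92 in experiment 2, and over both 0.54 ± 0.42 (SE, n = 2 per group), with a 95% interval of -0.42 to 1.50 (limma adjusted p = 0.9996). Without WT replicate 2, the array with the most outlier spots, it was -0.01, and without WT replicate 1 it was 1.08.

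**Figure D2:**
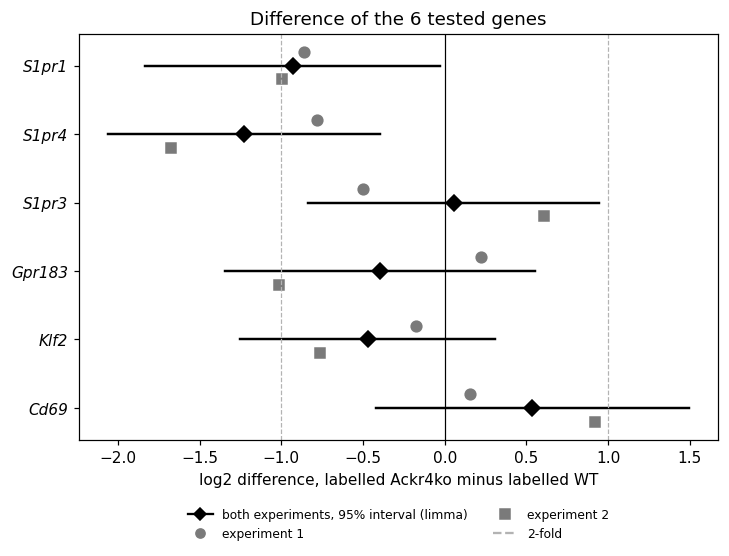
Log2 difference (x axis, labelled Ackr4ko minus labelled WT) of the 6 tested genes, with diamonds and bars for both experiments together with the 95% interval, circles for experiment 1 and squares for experiment 2, and dashed lines at 2-fold. The intervals of S1pr1 (-1.83 to -0.03) and S1pr4 (-2.06 to -0.40) lie below 0 before adjustment for all genes, and the experiments fall on opposite sides of 0 for S1pr3 and Gpr183.

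Across the 6 tested genes, 3 were lower on the array labelled Ackr4ko in both experiments (S1pr1, S1pr4 and Klf2), beside 20.9% of all tested genes, and 1 was higher in both (Cd69), beside 33.0%. The signs differed between the experiments for the other 2, S1pr3 and Gpr183. A difference of 2-fold or more with 1 sign in both experiments was seen for 0 of the 6, beside 286 of all tested genes (1.79%). The median difference of the 6 was -0.43, beside 0.08 over all 15961 tested genes, where it was -0.04 in experiment 1 and 0.23 in experiment 2. Scaling by the median of each array moved the median of all genes to 0.27. Relative to the median of all genes S1pr1 was -1.01, S1pr4 -1.31, Gpr183 -0.48, Klf2 -0.55, S1pr3 -0.03 and Cd69 0.45. These values are the same under either scaling by construction, since a scaling moves every gene's difference by the same amount. When arrays were scaled by their median, S1pr4 was the 1 gene of the 6 whose groups did not overlap. Without that change of scaling, the difference of each of these 6 genes was larger in size in experiment 2 than in experiment 1. With arrays scaled by their median this order was reversed for S1pr1, at -0.86 in experiment 1 and -0.63 in experiment 2, and kept for the others. How common this order was among all tested genes was not tested, so it is not read as particular to these genes. Without WT replicate 2, the array that stood apart, S1pr1 was at -1.24, S1pr4 at -1.15, Klf2 at -0.44, Gpr183 at -0.33, S1pr3 at -0.036 and Cd69 at -0.01.

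**Figure D3:**
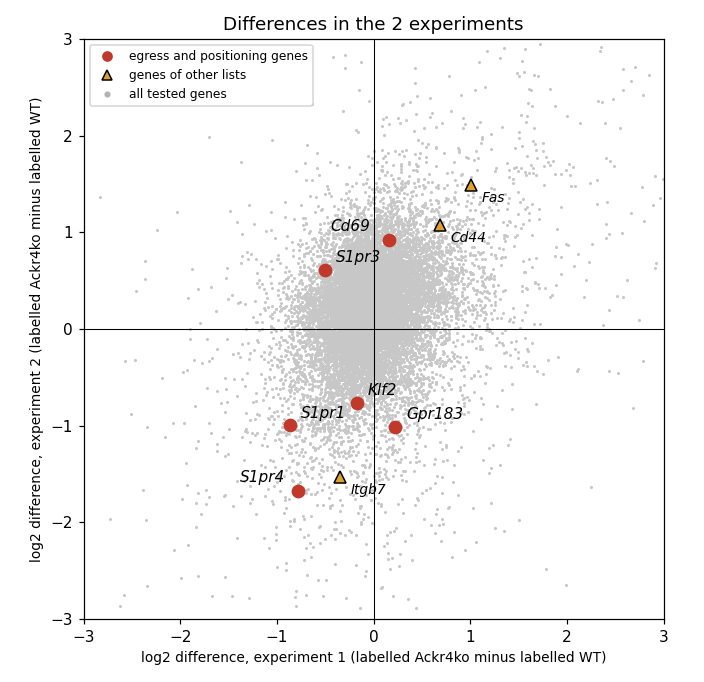
Log2 difference in experiment 1 (x axis) against experiment 2 (y axis), labelled Ackr4ko minus labelled WT, with grey points for all tested genes (71 beyond 3 log2 units are outside the axes), red circles for the 6 tested egress and positioning genes and triangles for Itgb7, Fas and Cd44. S1pr1, S1pr4 and Klf2 lie at the lower left with Itgb7, and Cd69 in the upper right with Fas and Cd44. Itgb7, Fas and Cd44 are marked as genes among the 2 with the smallest p in their lists. The other genes of those lists are not marked, and the list around KLF2 had 3 lower and 2 higher in both experiments.

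The regulators around KLF2 and its targets formed a list of 10 genes, of which 9 were tested and 0 called (1, Itgb7, at an unadjusted p under 0.05), with a median difference of -0.12, 3 lower and 2 higher in both experiments. That median ran from -0.32 without Ackr4ko replicate 1 to 0.071 without Ackr4ko replicate 2, and it was 0.066 when arrays were scaled by their median, beside 0.27 for all genes. Itgb7 encodes the beta chain of a gut-homing integrin. It measured 10.98 and 10.20 on the Ackr4ko-labelled arrays, against 11.33 and 11.73 on the WT-labelled ones, a difference of -0.94 ± 0.38 (limma adjusted p = 0.996, and 0.140 with the block). Its groups did not overlap, and the difference was larger in experiment 2 (-1.54) than in experiment 1 (-0.34). Without Ackr4ko replicate 2, Itgb7 was at -0.55. Mef2d, a transcription factor known to act upstream of Klf2, measured 13.08 and 12.67 on the Ackr4ko-labelled arrays, against 13.46 and 12.85 on the WT-labelled ones (difference -0.28 ± 0.36, limma adjusted p = 0.9996). Its groups overlapped, and without WT replicate 1 the difference was 0.020. The kinases of the same pathway were at -0.05 (Map2k5) and 0.13 (Mapk7), and Foxo1, which drives Klf2 in lymphocytes, was at 0.11.

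MEF2 factors, downstream of those kinases, are known to switch on Klf2 through its promoter in endothelial cells, and that stretch is shown because Klf2 is the transcription factor among the 7 genes. In the 250 bases before the start of Klf2 (RefSeq, GRCm38.p6, chr8:72318812-72319061, plus strand) the MEF2 motif was found at 1 place, in capitals, 118 bases before the start. The motif was searched on both strands and this match reads the same on each.
Klf2 promoter: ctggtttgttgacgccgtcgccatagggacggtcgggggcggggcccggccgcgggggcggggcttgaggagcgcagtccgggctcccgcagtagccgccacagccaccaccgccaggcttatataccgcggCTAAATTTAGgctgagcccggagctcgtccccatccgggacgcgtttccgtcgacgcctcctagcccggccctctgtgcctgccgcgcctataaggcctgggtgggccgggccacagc
Of 32851 RefSeq windows of 300 bases (250 before to 50 after a start), 3.19% hold the MEF2 motif. Such a window was found for 5 of the 7 genes, and the motif was in 2 of them (Klf2 and S1pr3). The core that KLF factors bind, CACCC, was in 4 of the 5, beside 57.52% of all windows. A match describes letters and is no evidence of binding.

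Of the 10 genes that make, degrade and carry S1P, 8 were tested and 0 called (0 at an unadjusted p under 0.05), with a median difference of -0.02, 2 lower and 0 higher in both experiments. That median ran from -0.16 without Ackr4ko replicate 1 to 0.060 without WT replicate 2, and it was 0.16 when arrays were scaled by their median. Sgpl1, the lyase that degrades S1P, measured 11.68 and 11.76 on the Ackr4ko-labelled arrays, against 12.96 and 12.00 on the WT-labelled ones (difference -0.77 ± 0.39, limma adjusted p = 0.9996). Its groups did not overlap, and without WT replicate 1, the brightest array, the difference was -0.29, and without WT replicate 2 it was -1.24. Plpp2, a lipid phosphatase, was at 0.49 ± 0.59, with opposite signs in the 2 experiments (1.35 and -0.38, limma adjusted p = 0.9996), 1.51 without WT replicate 2 and -0.54 without WT replicate 1. The S1P kinase gene Sphk1 and the phosphatase gene Sgpp2 were too dim to be tested, while Sphk2 was at -0.07. Of the 4 enzymes that make and break the oxysterol ligands of GPR183, Hsd3b7, which breaks them down, was the 1 tested (-0.41 ± 0.37, limma adjusted p = 0.9996), and Ch25h, Cyp27a1 and Cyp7b1 were too dim. Hsd3b7 ran from -0.77 without Ackr4ko replicate 1 to -0.050 without Ackr4ko replicate 2.

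Of 12 genes for G proteins, receptor kinases, arrestins and effectors that couple these receptors, 12 were tested and 0 called (0 at an unadjusted p under 0.05), with a median difference of -0.01 and a range of -0.70 to 0.35, 2 lower and 3 higher in both experiments. That median ran from -0.29 without WT replicate 2 to 0.14 without WT replicate 1, and it was 0.17 when arrays were scaled by their median. The arrestin gene Arrb1 was at -0.70 ± 0.48. It measured 10.64 and 9.14 on the Ackr4ko-labelled arrays, against 10.51 and 10.66 on the WT-labelled ones, and without Ackr4ko replicate 2 the difference was 0.055. Gnai2, the G protein subunit through which S1PR1 and chemokine receptors signal in lymphocytes, was at 0.35 ± 0.32 (limma adjusted p = 0.9996 for both), and at 0.18 after quantile normalization.

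Of 10 other receptors that place B cells and related lymphocytes, 9 were tested and 0 called (0 at an unadjusted p under 0.05), with a median difference of -0.25, 4 lower and 1 higher in both experiments. That median turned to 0.050 without Ackr4ko replicate 1, and it was -0.066 when arrays were scaled by their median. The 1 higher was Cxcr5, the follicle homing receptor, which measured 14.04 and 14.03 on the Ackr4ko-labelled arrays, against 13.43 and 13.78 on the WT-labelled ones (0.43 ± 0.33, limma adjusted p = 0.9996, and 0.25 without WT replicate 1). Gpr18, a receptor of lymphocytes, was at -0.44 ± 0.34 (limma adjusted p = 0.9996, and -0.21 without Ackr4ko replicate 2).

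Of 7 activation markers set beside Cd69, 7 were tested and 0 called (1, Fas, at an unadjusted p under 0.05). Their median difference was 0.40, from 0.14 without WT replicate 1 to 0.88 without Ackr4ko replicate 1, and 0.59 when arrays were scaled by their median. In both experiments 4 of them were higher, beside 33.0% of all tested genes, and 0 were lower, beside 20.9%. Fas, the death receptor that activated B cells acquire, measured 13.14 and 13.85 on the Ackr4ko-labelled arrays, against 12.13 and 12.37 on the WT-labelled ones, a difference of 1.25 ± 0.37 (limma adjusted p = 0.636, and 0.0140 with the block). Cd44, an adhesion receptor of activated lymphocytes, was at 0.88 ± 0.39 (limma adjusted p = 0.9996). Cd44 was at 0.47 without Ackr4ko replicate 2 and at 0.57 as the mean of its tested probes. Cd86, Cd80, Il2ra, Myc and Cd83 ranged from 0.07 to 0.73. The signs differed between experiments 1 and 2 for Il2ra (1.04 and -0.48), Myc (-0.38 and 1.18) and Cd83 (-0.32 and 0.46).

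**Figure D4:**
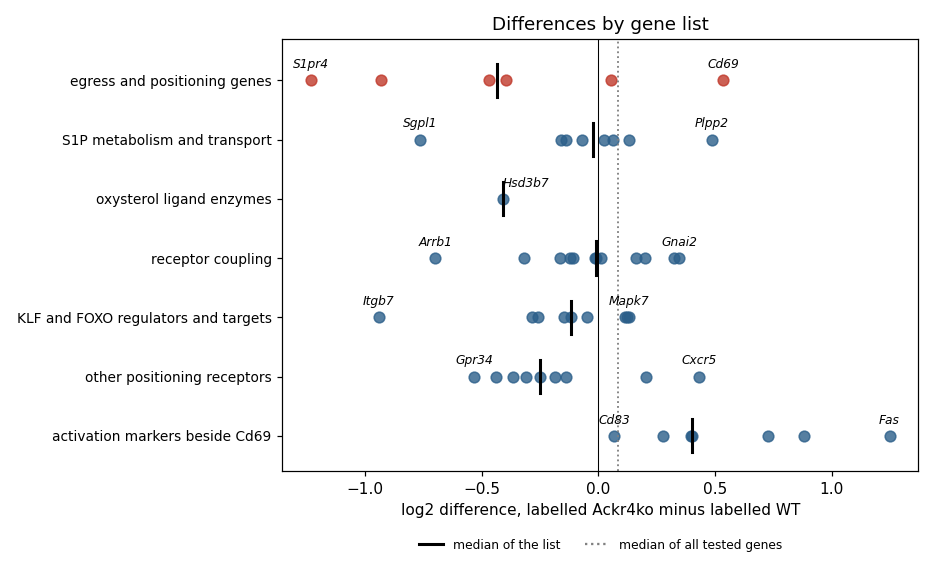
Log2 difference (x axis, labelled Ackr4ko minus labelled WT) of each tested gene by list, with a bar at the list's median, a dotted line at the median of all tested genes (0.08), and the lowest and highest gene of each list named. The 6 egress and positioning genes run from S1pr4 at -1.23 to Cd69 at 0.54. The activation markers lie at or above 0.07 over both experiments, though Il2ra, Myc and Cd83 had opposite signs in the single experiments.

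S1pr1, Klf2 and Cd69 are not particular to B cells, so marker genes are given beside them as sums of the linear signals of a list, read only between arrays. B cell markers summed to 291402 and 280355 on the Ackr4ko-labelled arrays, against 363071 and 346379 on the WT-labelled ones. That sum was lower on both arrays labelled Ackr4ko, as were S1pr1, S1pr4 and Klf2. It rests mostly on the brightest markers, Cd79b and Ms4a1 (-0.34 each), which were lower in both experiments. The others were mixed, with Cd79a at -0.25, Cd22 and Pax5 at 0.05 each, and Ebf1, higher in both experiments, at 0.31 (limma adjusted p = 0.9996 for each marker). Endothelial and stromal markers, cells in which S1pr1 and Klf2 are also known to be active, summed to 5935 and 7054 on the Ackr4ko-labelled arrays, against 7465 and 7214 on the WT-labelled ones. Of these 5 markers 3 were tested, and Col1a1 and Pdgfrb were too dim. The sum rests mostly on Kdr, at -0.13 with opposite signs in the 2 experiments (-0.31 and 0.06). Cdh5, well above background on 2 arrays, was at -0.07, and Pecam1, which other blood cells also carry, was at -1.09 (limma adjusted p = 0.9996 for all 3). T cell markers summed to 3156 and 4528 on the Ackr4ko-labelled arrays, against 3348 and 4310 on the WT-labelled ones, with Cd8a too dim. Dendritic cell markers summed to 62613 and 75139 on the Ackr4ko-labelled arrays, against 64479 and 62845 on the WT-labelled ones, with Itgax and Xcr1 too dim. That sum rests mostly on Siglech, at -0.0086 (limma adjusted p = 0.9996) with opposite signs in the 2 experiments (-0.21 and 0.20). The dimmer Flt3, at 1.07 (limma adjusted p = 0.711), and Zbtb46, at 1.0 (limma adjusted p = 0.918), were higher in both experiments. Macrophage markers summed to 19239 and 19616 on the Ackr4ko-labelled arrays, against 18020 and 22336 on the WT-labelled ones, with Cd14 too dim. Of the NK cell markers, Ncr1 and Klrb1c were too dim and Prf1 was at 0.34 (limma adjusted p = 0.9996). Plasma cell markers summed to 7499 and 8545 on the Ackr4ko-labelled arrays, against 6837 and 5326 on the WT-labelled ones. That sum rests mostly on Irf4, which activated B cells also carry, at 0.43. The other plasma cell markers, Sdc1 at -0.39 and Prdm1 at -0.35, had opposite signs in the 2 experiments (limma adjusted p = 0.9996 for all 3). The part of these cells, or of the B cell share, in the differences was not tested.

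The genes closest in pattern to each member were sought among 9854 genes with an established symbol that were well above background on all 4 arrays, by the root mean square difference of the centred log2 values over the 4 arrays. With 4 arrays many genes lie close, so these are descriptions. For S1pr4, the member with the fewest genes within 0.2 (31), they were Csprs (0.033) and Tnfsf18 (0.035). Both were called with the experiment as a block (limma adjusted p = 0.0235 for Csprs and 0.0167 for Tnfsf18) and not without it (0.703 for Csprs and 0.645 for Tnfsf18). Genes picked for a pattern like that of S1pr4 get a similar p by that choice, so these calls are no separate result. S1pr1, with 120 genes within 0.2, was closest to Fam214a (0.029) and Syne2 (0.033), and Gpr183, with 186, to Smim24 (0.023) and Ctso (0.041). Klf2 was closest to Crxos (0.015) and Txndc15 (0.032) among 636, Cd69 to Mettl1 (0.058) and Ppp1r15a (0.071) among 66, and S1pr3 to Nutf2 and Dennd5b (0.035 each) among 1076.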

How the data were processed

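Total RNA (50 ng per sample) was labelled with Cy3, per the labels' protocols, and the 4 arrays lay on 1 slide scanned on 1 day. Per the file headers and the submitters' processing notes, Agilent Feature Extraction 10.7.3.1 wrote the deposited scanner files, which hold each spot's processed, mean and background intensity with flags. The authors' deposited value table holds 1 whole-number intensity per probe, with a median of 67 and a lowest value of 15 in every column. Its normalization is not given in the sources used here, its scale reads as linear, and its direction is unknown, as stated above.

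Log2 processed intensity was scaled to each array's 75th percentile (all non-control spots) and put back on the mean of the 4. Control and outlier spots were left out (3 of the members' spots), spots of a probe were averaged, and 0 spots were saturated. The SD between spots of the 6 tested genes was 0.02 to 0.17. Detection on an array needed 50% or more of a probe's spots well above background, and a probe was tested when detected on at least 2 arrays (20862 of 39429). A gene was its brightest tested probe (15961 genes). Names came from the array's accessions through a GRCm38.p6 gene table (28328 probes by their main accession, looked up among RefSeq and Ensembl accessions). The comparison used limma (lmFit, eBayes, two-sided, Benjamini-Hochberg; version 3.58.1, R version 4.3.3). Same-experiment arrays, which the labels pair, deviated together (r = 0.42 across genes), and the blocked fit is given where it changed a call. It has 1 variance for all genes, so its calls follow the size of the mean difference alone. The fit was tested on simulated data. Intervals are limma's 95%.

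The members, the gene lists and the rule for named genes (all members, from each list the called genes or the 2 with the smallest p, and the 2 nearest profiles) were chosen with earlier results of these data known, and a few other list genes were named after their values were seen. Few arrays limit the precision. From the lists, 1 gene and 1 cell type marker were left out and are not reported here.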

Additional observations from a re-analysis of the deposited data

How the results depend on the processing

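Of the 6 tested genes, S1pr1, S1pr4 and Klf2 kept their direction under all 13 alternatives on the scanner files, Gpr183 and Cd69 under 12 and S1pr3 under 10. These counts are no measure of robustness. Each gene has 1 probe, so alternatives that change only the filter, the choice of probes or the block cannot move its difference. For S1pr1, S1pr4 and Klf2, whose groups did not overlap, leaving out 1 array cannot turn the sign. With 1 array left out, S1pr1 ranged from -1.31 to -0.55, S1pr4 from -1.59 to -0.87, Klf2 from -0.73 to -0.21, Gpr183 from -0.95 to 0.16, Cd69 from -0.013 to 1.08, S1pr3 from -0.41 to 0.52, Plpp2 from -0.54 to 1.51, Mef2d from -0.59 to 0.020 and Arrb1 from -1.45 to 0.055. S1pr3 also turned to -0.029 with normexp background correction. The replicate block, the experiment, called S1pr4 (-1.23, adjusted p = 0.0166), 1 of the 6 against 0 without it, and among the other genes named Fas (1.25), Csprs and Tnfsf18. It changed no other call of a gene named here. Over all genes it called 532, against 2 without it, 1 with quantile normalization, 188 with the median of each array, 19 with normexp, 0 with probes detected on all 4 arrays (524 at an unadjusted p under 0.05), 0 without a filter on dim probes (296), 5 with each probe on its own, 0 with the block and quantile normalization, 1 with the value table and 1 to 122 with 1 array left out. A difference of 2-fold or more with 1 sign in both experiments was seen for 114 with normexp, 138 with probes detected on all 4 arrays and 450 genes without a filter, against 286. Members whose groups did not overlap numbered 1 with the median of each array, against 3, and 3 to 6 with 1 array left out, when 54.5% to 77.7% of all genes did not overlap. These last counts were chosen after seeing the data.

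With the labels of the authors' deposited value table, whose columns match the arrays of the other genotype, S1pr3 kept its sign (0.015), and the signs of these genes turned: S1pr1 gave 0.98, S1pr4 1.29, Gpr183 0.46, Klf2 0.56, Cd69 -0.45, Sgpl1 0.89, Plpp2 -0.39, Hsd3b7 0.11, Gnai2 -0.17, Arrb1 0.75, Mef2d 0.41, Itgb7 1.01, Cxcr5 -0.31, Gpr18 0.42, Cd44 -0.74 and Fas -1.12. Low signal limits S1pr2. The causes of the other changes were not tested.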

Other observations

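The authors' deposited table gives the same 7 genes on its own scale, under its own labels, with a lowest value of 15. S1pr1 is listed there at 1358 and 974 under Ackr4ko and 762 and 447 under WT, and S1pr4 at 686 and 831 under Ackr4ko and 398 and 238 under WT. Klf2 is listed in the authors' deposited table at 7526 and 8258 under Ackr4ko and 6728 and 4246 under WT, and Cd69 at 6976 and 3433 under Ackr4ko and 8009 and 5618 under WT. S1pr2 stands in the authors' deposited table at 17 and 15 under Ackr4ko and 43 and 24 under WT, close to its lowest value, while S1pr3 is at 231 and 227 under Ackr4ko and 163 and 315 under WT and Gpr183 at 2963 and 3567 under Ackr4ko and 3476 and 1618 under WT.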
